A study of Mus musculus with 2 samples.

Results

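The 10 genes described here encode glutathione transferases: Gsta3 and Gsta4 of the alpha class, Gstm1, Gstm2 and Gstm5 of the mu class, Gstp1 of the pi class, Gstt1 of the theta class, Gsto1 of the omega class, and the membrane-bound microsomal enzymes Mgst1 and Mgst3. They were picked by name from the 31057 genes of the files, and each was found once. The list was chosen with earlier results of these data known, so its counts beside all genes are descriptive. The data were single-cell RNA counts from whole ovaries of CD1 female mice at postnatal day 2, for which no genetic change or treatment is labelled, in 2 libraries that the labels call biological replicates. Each library pooled the ovaries of several littermate pups, so the animals within a library cannot be told apart. All p-values therefore rest on 2 libraries a cell type. The question was in which ovarian cells each enzyme is transcribed, and whether granulosa cells with and without the pregranulosa genes Colec11 and Pld5 differ in them.

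Glutathione transferases join the tripeptide glutathione to electrophiles such as lipid peroxidation products, quinones and drugs, and the conjugates are then pumped out of the cell. The soluble alpha, mu, pi, theta and omega enzymes share one fold, while the microsomal enzymes belong to an unrelated membrane family and also reduce lipid hydroperoxides. In the ovary the enzymes are best known from granulosa cells, which surround the oocyte in the follicle, and from steroid-making cells. Many of these genes are targets of the transcription factor Nrf2, which binds the antioxidant response element when it is released from Keap1.

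Cells were assigned by marker genes that include none of the enzymes. Germ cells carried at least 2 of Ddx4, Dazl and Ooep, granulosa cells Foxl2, Fst or Wnt6, interstitial cells Col1a2 and Dcn, mesothelial cells Upk3b and immune cells Ptprc. After filtering, the libraries held 3625 and 4332 cells, of which library 1 gave 222 germ, 1662 granulosa, 1151 interstitial, 20 mesothelial and 5 immune cells. Library 2 gave 524 germ, 609 granulosa, 1942 interstitial, 41 mesothelial and 10 immune cells. A further 136 and 186 cells passed both the mesothelial and the granulosa gate and were left out. The mesothelial cells described here are therefore the smaller part of the Upk3b cells, those that passed no other gate. Marker lists that the gates did not use had all 5 of their genes detected in their own type in both libraries, and each list was highest there. Germ markers summed to 4212 and 3513 UMIs (unique molecular identifiers, each marking 1 captured RNA molecule) per 1000000, or CPM, in germ cells and at most 64.4 elsewhere. Germ cells were also deeper, with a median of 78158 and 52705 UMIs a cell against 9875 and 9639 in granulosa cells. Library 2 differed by its haemoglobin and other erythroid UMIs, which stood at 2005 CPM in interstitial cells against 29.4 in library 1. The libraries shared 21 cell barcodes.

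Levels are given in CPM, the UMIs of a gene in 1 cell type of 1 library per 1000000 UMIs of that type and library. A UMI tags the 3′ end of a transcript, so on this scale a long transcript has no advantage over a short one. Granulosa cells held the highest summed level of the 10 genes, 3617 CPM in library 1 and 4248 in library 2. Mesothelial cells held 2050 and 2058, germ cells 816 and 765, and interstitial cells 778 and 808. The groups did not overlap except for germ and interstitial cells. The classes were mixed differently in each type. In granulosa cells the mu class made up 65.2% and 69.5% of the enzyme UMIs. In germ cells the microsomal class led with 47.0% and 42.7%, and the alpha class gave 23.0% and 25.1%. Among germ, granulosa, interstitial and mesothelial cells, interstitial cells had the largest omega share, 14.9% and 11.2%, and the largest theta share, 10.1% and 12.9%. The shares count only the 10 genes, so omega stands for Gsto1 alone and theta for Gstt1 alone. Gsto2, an omega gene outside the 10, is described below as a germ cell transcript and does not enter them.

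**Figure D1:**
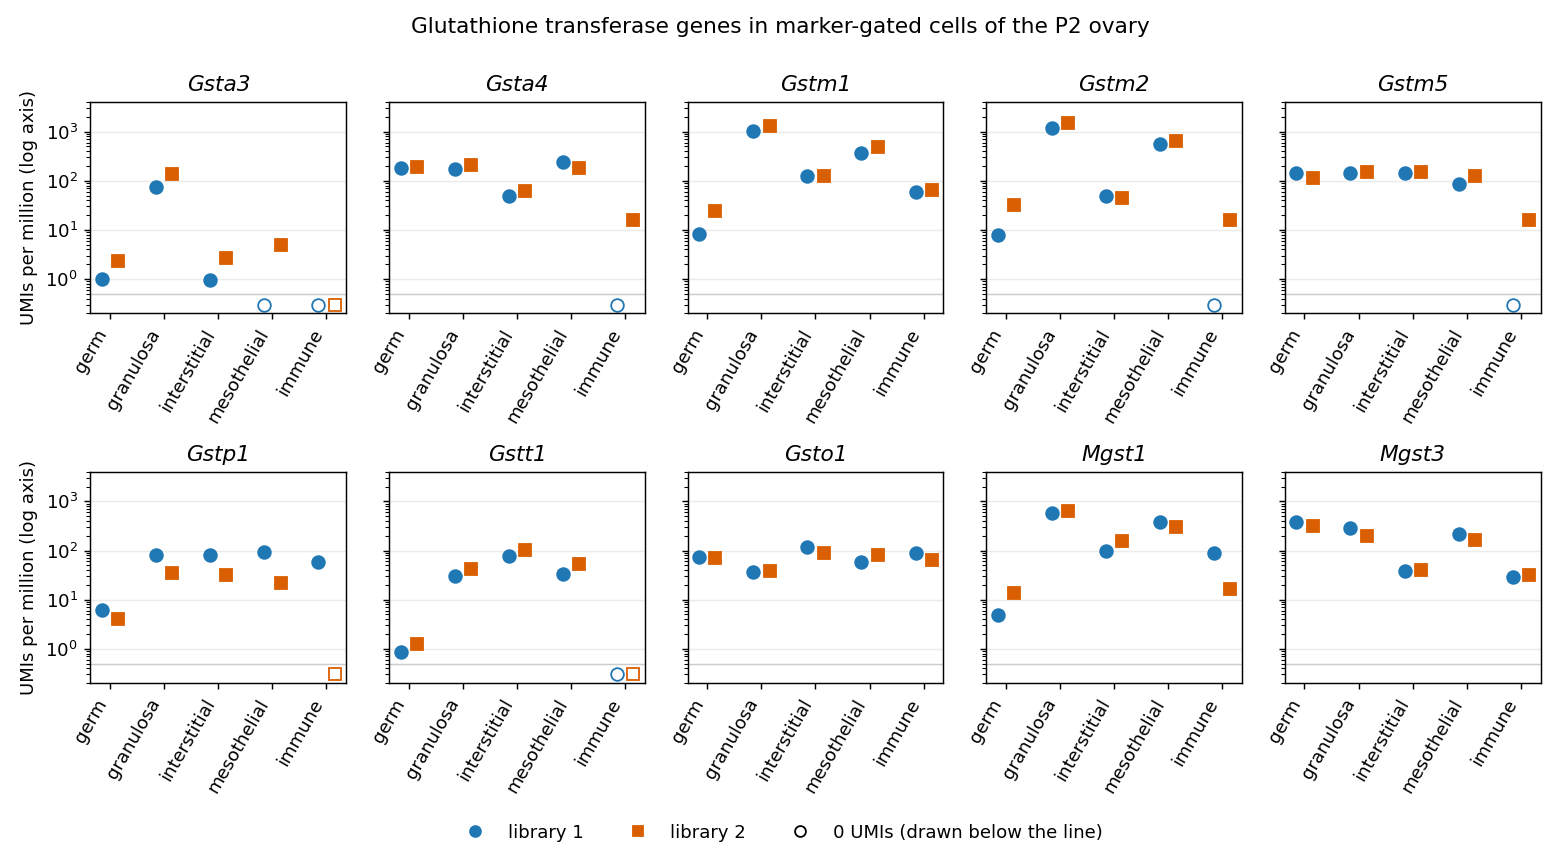
CPM on a log axis for the 10 genes in 5 marker-gated cell types, with a circle for library 1 and a square for library 2 (open symbols below the line mark 0 UMIs). Gstm1 and Gstm2 reached 1044 to 1524 CPM in granulosa cells, while Gstm5 stayed between 84.4 and 152 in germ, granulosa, interstitial and mesothelial cells.

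**Figure D2:**
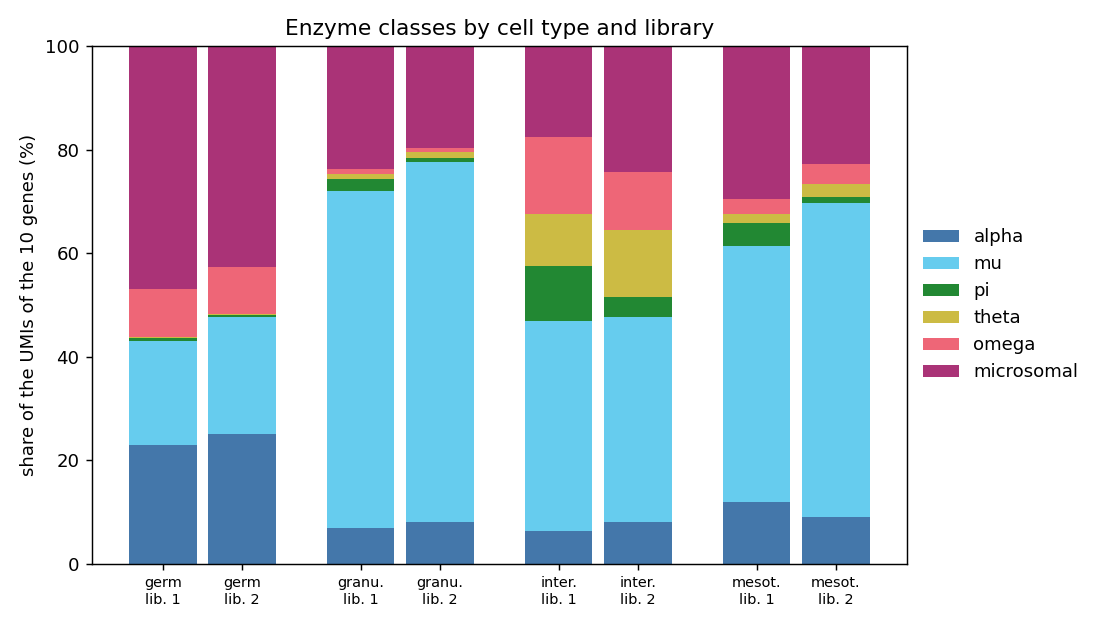
Share of the summed UMIs of the 10 genes, in percent, that belongs to each enzyme class, with 1 bar for each library of germ, granulosa, interstitial and mesothelial cells. The mu class fills 65.2% and 69.5% of the granulosa bars, and the microsomal class 47.0% and 42.7% of the germ bars.

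The cell types were compared in pairs on the UMIs summed per library and type, with edgeR's quasi-likelihood test over 14732 genes. A gene was called at an adjusted p under 0.05 (Benjamini-Hochberg over all genes tested) and a change over 2-fold. Standard errors are approximate, taken as the size of the log2 difference divided by the square root of the F statistic of the test. These pairs were added once the immune gate was seen to hold few cells, and the pairs that share a cell type share its libraries. Between granulosa and germ cells 7 of the 10 genes were called, 6 higher and 1 lower in granulosa cells, where 60.8% of all genes were called. Between granulosa and interstitial cells 8 were called, 6 higher and 2 lower in granulosa cells, against 27.9% of all genes. Only 2 were called between granulosa and mesothelial cells, both higher in granulosa cells (7.71% of all genes). Germ cells differed from interstitial cells in 7 genes, 2 higher and 5 lower (60.9% of all genes), and from mesothelial cells in 6, 1 higher and 5 lower (43.1%). Mesothelial cells were higher than interstitial cells in 5 genes and lower in none (12.7%). An unadjusted p of 0.05 was passed there in either direction by 8 of the 10 genes and by 3866 of all genes. DESeq2 called 5 of the 10, and its share of all genes was not counted. The median log2 difference of the 10 genes was 4.13 for granulosa against germ cells, beside -0.11 over all genes tested, and 2.01 for granulosa against interstitial cells, beside 0.05. Scaling by library size alone moved the median of all genes by 0.16 in the granulosa and germ comparison, by -0.16 for germ against interstitial cells and by -0.20 for germ against mesothelial cells.

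**Figure D3:**
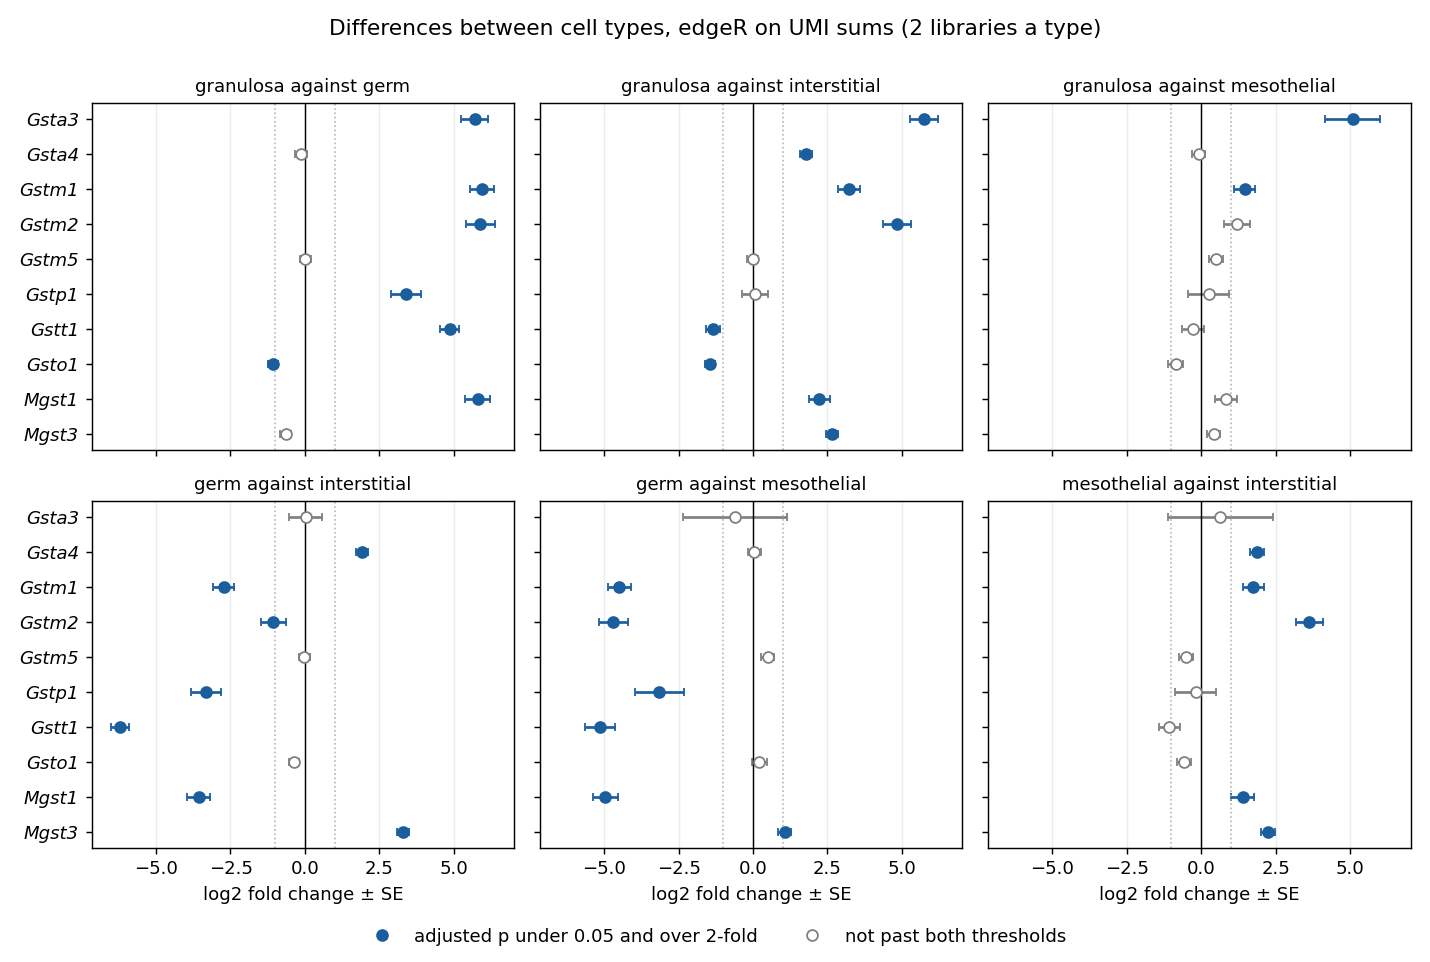
Log2 fold changes (point) with approximate standard errors (bar) for the 10 genes in 6 pairs of cell types, from edgeR fits on 2 libraries a type. Filled points passed an adjusted p of 0.05 and 2-fold, and dotted lines mark 2-fold. Gsta3, Gstm1, Gstm2 and Mgst1 lie at 5.70 to 5.96 for granulosa against germ cells, and Gstt1 at -6.21 for germ against interstitial cells.

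Among the alpha enzymes, Gsta3 was a granulosa transcript as far as the gated types go. This enzyme is known in the mouse for conjugating the aflatoxin epoxide. Its gene (ENSMUSG00000025934) lies at chr1:21240589-21265661 on the plus strand of GRCm38 and overlaps the antisense gene Gm28836, so strand-specific counting matters for its value. Granulosa cells held 73.4 and 134 CPM of Gsta3 in libraries 1 and 2. Germ cells held 0.979 and 2.38, interstitial cells 0.957 and 2.69, and mesothelial cells 0 and 4.95. Both granulosa libraries were far above all libraries of the other gated types listed here, and those other types overlapped. Cells that passed no gate held 37.4 and 60.5 CPM of Gsta3. The difference was 5.70 ± 0.44 (log2, SE) against germ cells (adjusted p = 5.7e-08) and 5.74 ± 0.46 against interstitial cells (adjusted p = 4.6e-07). Against mesothelial cells it was called as well (adjusted p = 0.0038), but there it rested on 2 UMIs. That ratio was 29.1 over the pooled libraries, with an exact 95% counting interval of 8.04 to 240. In granulosa cells 44.9% and 57.5% of cells had a Gsta3 UMI, against 0.695% and 1.29% of interstitial cells, whose median depth was 6446 and 4764 UMIs. With every cell thinned to 2000 UMIs the shares were 13.7% and 21.2% in granulosa cells and 0.350% and 0.636% in interstitial cells.

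Gsta4, the alpha enzyme that removes the lipid peroxidation product 4-hydroxynonenal, did not follow Gsta3. Its gene (ENSMUSG00000032348) lies at chr9:78182774-78209349 on the plus strand. Gsta4 measured 186 and 190 CPM in germ cells, 175 and 209 in granulosa cells, and 245 and 181 in mesothelial cells. These 3 types overlapped, and no pair among them was called. Interstitial cells were lower, at 48.3 and 62.2 CPM. The difference from interstitial cells was 1.79 ± 0.20 for granulosa cells (adjusted p = 6.9e-06), 1.92 ± 0.20 for germ cells (adjusted p = 8.0e-07) and 1.88 ± 0.23 for mesothelial cells (adjusted p = 6.9e-05). Because germ cells are deep, the same levels stood for 13.7 and 8.51 UMIs of Gsta4 in a germ cell and 2.08 and 2.69 in a granulosa cell.

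The mu genes lie side by side on chromosome 3, where 7 Gstm genes fill 149 kb in the order Gstm5, Gstm7, Gstm6, Gstm3, Gstm2, Gstm1, Gstm4. Gstm5 is on the plus strand and the others on the minus strand. Gstm2 (ENSMUSG00000040562, chr3:107981702-107986453) was the most abundant of the 10 genes in granulosa cells, at 1172 and 1524 CPM. Mesothelial cells held 565 and 634 of it, interstitial cells 49.8 and 44.4, and germ cells 7.77 and 31.6. All 4 types were apart, in that order. The log2 difference of granulosa cells was 5.89 ± 0.49 against germ cells (adjusted p = 7.0e-08) and 4.84 ± 0.47 against interstitial cells (adjusted p = 1.5e-06). Against mesothelial cells Gstm2 measured 1.20 ± 0.42 and was not called (adjusted p = 0.10), but it was with the library as a block (adjusted p = 6.8e-04). Mesothelial cells were above interstitial cells by 3.63 ± 0.46 (adjusted p = 7.9e-05). Germ cells stood at -1.06 ± 0.42 against interstitial cells (adjusted p = 0.033), a call that held in 9 of 13 settings and was lost with other gates or cell filters.

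Gstm1 (ENSMUSG00000058135, chr3:108012255-108017973), the neighbouring gene, followed Gstm2 in granulosa cells with 1044 and 1277 CPM, and in mesothelial cells with 363 and 490. It parted from Gstm2 in interstitial cells, where it held 124 CPM in both libraries. Germ cells held 8.32 and 24.2. Granulosa cells were higher by 5.96 ± 0.41 against germ cells (adjusted p = 9.4e-09), by 3.22 ± 0.36 against interstitial cells (adjusted p = 5.4e-06) and by 1.47 ± 0.35 against mesothelial cells (adjusted p = 0.019). The last call was lost with stricter gates and when cells of several gates were given to the largest, and so was the call of mesothelial over interstitial cells (1.76 ± 0.36, adjusted p = 0.0040). Both settings enlarged the mesothelial type, from 20 and 41 cells to 51 and 83 and to 88 and 157. A Gstm1 UMI was present in 97.7% of granulosa cells in both libraries and in 28.4% and 22.3% of germ cells; thinned to 2000 UMIs a cell, the shares were 75.4% and 84.6% against 1.83% and 5.39%.

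Gstm5 (ENSMUSG00000004032, chr3:107895821-107898686), at the other end of the cluster, was nearly even. It measured 147 and 116 CPM in germ cells, 142 and 152 in granulosa cells, 143 and 152 in interstitial cells, and 84.4 and 124 in mesothelial cells. All 4 types overlapped with at least one other, and none of the 6 pairs was called. The standard error of the log2 difference was 0.18 between granulosa and germ cells and also between granulosa and interstitial cells. Gstm5 overlaps the antisense gene 4933431E20Rik.

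The remaining genes of the cluster are no part of the 10. Gstm6 and Gstm7, which lie between Gstm5 and Gstm2, were also granulosa transcripts. Gstm6 held 164 and 269 CPM in granulosa cells against 1.20 and 1.39 in interstitial cells, a log2 difference of 7.35 ± 0.42 (adjusted p = 1.9e-08). Gstm7 held 48.5 and 71.0 against 2.63 and 3.21, a difference of 4.32 ± 0.32 (adjusted p = 2.1e-07). Gstm4, at the far end, held 8.21 and 10.1 CPM in granulosa cells and 9.91 and 6.85 in germ cells. Gstm3 had at most 1.02 CPM in any library of these types and was not tested.

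**Figure D4:**
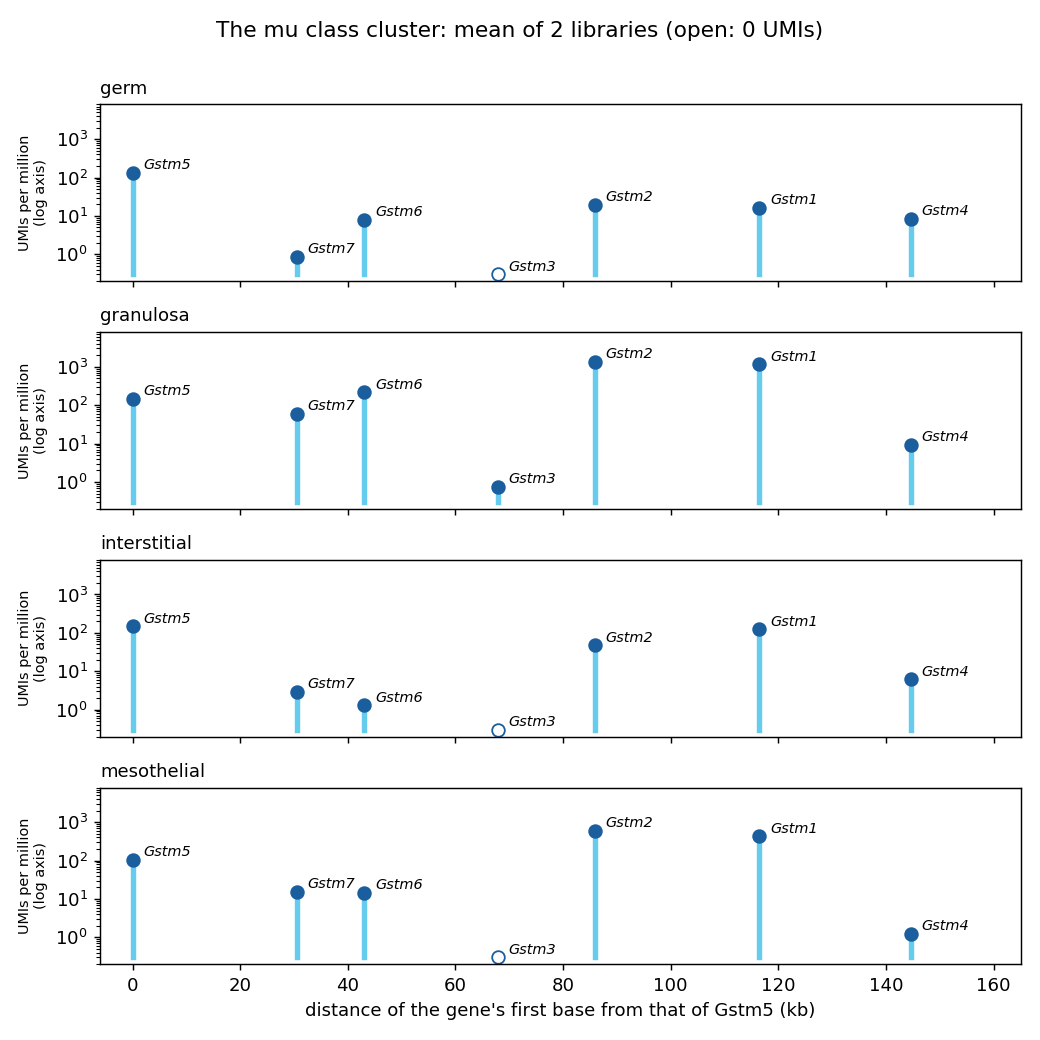
Mean CPM of 2 libraries (log axis, open circle for 0 UMIs) for the 7 Gstm genes against the distance of their first base (lowest coordinate) from that of Gstm5 in kb, in 4 cell types. In granulosa cells Gstm6, Gstm2 and Gstm1 stand at 217, 1348 and 1160, whereas Gstm5 stands at 104 to 148 in all 4 panels.

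Gstp1 (ENSMUSG00000060803, chr19:4035407-4037985, minus strand), the pi enzyme, which also binds the kinase JNK, was low in germ cells and differed between the libraries elsewhere. Germ cells held 6.12 and 3.96 CPM. Granulosa cells held 82.2 and 34.1, interstitial cells 81.6 and 31.1, and mesothelial cells 92.8 and 22.3. The level in library 1 was the higher of the pair in each of these types, and the 3 somatic types overlapped. Granulosa cells were above germ cells by 3.40 ± 0.50 (adjusted p = 2.1e-05), and germ cells stood at -3.33 ± 0.50 against interstitial cells (adjusted p = 2.6e-05). Of the 50-base stretches in the last 500 bases of its transcript, 75.2% are also found in Gstp2 and 60.5% in the pseudogene Gstp-ps, so its counts are uncertain. Gstp2 itself was listed at 16.7 and 7.23 CPM in germ cells and at 0.456 and 0.255 in granulosa cells.

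Gstt1 (ENSMUSG00000001663, chr10:75783813-75798584, minus strand), the theta enzyme that acts on small halogenated compounds, was highest in interstitial cells. Interstitial cells held 78.8 and 104 CPM, mesothelial cells 33.7 and 52.0, granulosa cells 30.3 and 42.7, and germ cells 0.856 and 1.28. Mesothelial and granulosa cells overlapped, and the other types were apart. Granulosa cells stood at -1.34 ± 0.23 against interstitial cells (log2, adjusted p = 3.6e-04). Germ cells stood at -6.21 ± 0.31 against interstitial cells (adjusted p = 9.7e-10) and granulosa cells at 4.86 ± 0.30 against germ cells (adjusted p = 8.4e-09). Mesothelial cells at -1.07 ± 0.35 against interstitial cells were not called (adjusted p = 0.056), but they were with the library as a block (adjusted p = 0.0056).

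Gsto1 (ENSMUSG00000025068, chr19:47854970-47864790, plus strand), the omega enzyme, which reduces dehydroascorbate and mixed disulfides, was lowest in granulosa cells, where Gstm1 and Gstm2 were highest. Its highest level was also in interstitial cells, at 116 and 90.8 CPM. Germ cells held 75.1 and 69.0, mesothelial cells 59.1 and 79.3, and granulosa cells 37.3 and 39.1. Granulosa cells were the lowest of these 4 types in both libraries. The difference of granulosa cells was -1.44 ± 0.17 from interstitial cells (adjusted p = 1.1e-05) and -1.08 ± 0.17 from germ cells (adjusted p = 4.7e-05). The call against germ cells lies close to 2-fold and held in 4 of 13 settings, with log2 values from -1.09 to -0.68. Gsto1 overlaps Cfap43 on the other strand.

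Mgst1 (ENSMUSG00000008540, chr6:138140316-138156755, plus strand) sits in the endoplasmic reticulum and the outer mitochondrial membrane and has peroxidase activity. It followed Gstm1 and Gstm2, with 567 and 633 CPM in granulosa cells, 388 and 305 in mesothelial cells, 98.1 and 156 in interstitial cells, and 4.89 and 13.7 in germ cells. All 4 types were apart. Granulosa cells were above germ cells by 5.80 ± 0.42 (adjusted p = 1.7e-08) and above interstitial cells by 2.23 ± 0.36 (adjusted p = 1.6e-04). Against mesothelial cells the value was 0.84 ± 0.37 and not called (adjusted p = 0.21). Mesothelial cells were above interstitial cells by 1.39 ± 0.38 (adjusted p = 0.023), a call lost in 3 of 13 settings.

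Mgst3 (ENSMUSG00000026688, chr1:167371966-167393841, minus strand), which can make leukotriene C4 and reduce lipid hydroperoxides, led in germ cells. Germ cells held 378 and 313 CPM, granulosa cells 294 and 202, mesothelial cells 219 and 166, and interstitial cells 38.2 and 40.2. Granulosa and mesothelial cells overlapped, and germ cells were above both. Germ cells were above interstitial cells by 3.29 ± 0.21 (adjusted p = 4.0e-09) and granulosa cells by 2.65 ± 0.20 (adjusted p = 1.7e-07). Against mesothelial cells the germ value was 1.06 ± 0.22 (adjusted p = 0.0011), which was past 2-fold in 4 of 13 settings. Between granulosa and germ cells the value was -0.64 ± 0.19 (adjusted p = 0.0068), past the p threshold but under 2-fold. In absolute terms a germ cell carried 27.9 and 14.0 UMIs of Mgst3 and a granulosa cell 3.49 and 2.60.

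In germ cells the low values of Gsta3, Gstm1, Gstm2, Mgst1 and Gstt1 were 0.663% to 2.99% of their granulosa levels. The 5 granulosa markers outside the gates measured from 0.312% (Amh) to 5.96% (Nr5a2) of their granulosa level there in library 1, and from 0.859% (Amh) to 4.05% (Nr5a2) in library 2. In the germ cells the 10% of cells with most Gstm2 held 70.9% and 90.3% of its UMIs, against 19.7% and 23.3% for Mgst3. Such a share rises as counts fall, and Gstm2 had 0.572 and 1.42 UMIs a germ cell against 27.9 and 14.0 for Mgst3. The shares of these genes can therefore not be compared as a measure of how unevenly cells carry them. The part of granulosa RNA in these germ values was not tested. In interstitial cells Gsta3 measured 1.30% and 2.00% of its granulosa level, Gstm1 11.8% and 9.72%, and Mgst1 17.3% and 24.7%. The same 5 markers ran there from 0.210% (Hsd17b1) to 21.9% (Kitl) in library 1 and from 0% (Hsd17b1) to 29.8% (Kitl) in library 2. Amh, Inha and Nr5a2 measured at most 1.37%. Of the gate genes, Foxl2 measured 16.7% and 22.3%, Fst 0.282% and 0.319%, and Wnt6 1.78% and 1.44%. In mesothelial cells Gstm2 measured 48.2% and 41.6% of its granulosa level, Gstm1 34.8% and 38.4%, and Mgst1 68.4% and 48.1%. Of the 5 markers, Hsd17b1 and Nr5a2 had 0 UMIs there in both libraries. Amh measured 0% and 22.2%, the latter on 4 UMIs, Inha 7.30% and 8.41%, and Kitl 113% and 108%. Kitl, at 110 and 89.2 CPM, made up most of the marker sum of 173 and 163 CPM in mesothelial cells. The part of granulosa RNA in the interstitial and mesothelial values was not tested either.

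Each type was then set against the mean of the other 4 types. The study's own test set 1 cell type against all, and its details were not at hand, so the mean used here need not match it. The mean was that of log2 levels with equal weight, so a type with a low level pulls it down. A gene called higher in 1 type can therefore stand higher still in another. Gstt1 was called in granulosa cells at a mean of 36.5 CPM, while interstitial cells held 91.4. Immune cells enter the reference mean with 5 and 10 cells in all and with 0 UMIs of Gsta3 and Gstt1. The fold sizes therefore depend on how 0 is treated, and only calls are given. Granulosa cells were higher in 8 genes (17.4% of all genes) and lower in none (2.41%). The 8 were Gsta3, Gsta4, Gstm1, Gstm2, Gstm5, Gstt1, Mgst1 and Mgst3. Against the sum of all other gated cells Gsta4, Gstm5, Gstt1 and Mgst3 were not called in granulosa cells. Germ cells were higher in Gsta4, Gstm5 and Mgst3, or 3 genes (35.0%), and lower in Gstm1, Gstp1 and Mgst1, or 3 genes (9.98%). Interstitial cells were higher in Gstm5 and Gstt1, or 2 genes (16.5%), and lower in Mgst3, or 1 (3.20%). Mesothelial cells were higher in 5 genes (7.20%), Gsta4, Gstm1, Gstm2, Gstt1 and Mgst1, and lower in none (1.05%). None of these 5 was called in mesothelial cells against the sum of all other gated cells. Immune cells were higher in none (3.84%) and lower in Gsta4, Gstm5 and Mgst3, or 3 genes (3.27%), on at most 2 UMIs of each in a library. In the immune comparison 54.0% of all calls were higher, and 77.5% when scaled by library size alone, where the median of all genes moved by 0.37. Where a direction had no call, the enzymes past an unadjusted p of 0.05 in either direction in edgeR numbered 10 in granulosa, 6 in mesothelial and 5 in immune cells. Of all 14732 genes, 5185, 3144 and 2834 passed it there. DESeq2 called 9, 5 and 1 enzymes in either direction, and its share of all genes was not counted. With the library as a block the immune count rose to 5, and Gstm2 in germ cells, Gstp1 and Gsto1 in granulosa cells and Gstp1 in interstitial cells were called as well (adjusted p = 0.014, 9.1e-05, 5.8e-04 and 2.3e-04).

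With the immune cells left out, granulosa cells had 7 genes called (24.1% of all genes), with Gsta3, Gstm1, Gstm2, Gstp1, Gstt1 and Mgst1 higher and Gsto1 lower. Germ cells had 6 (55.2%), with Mgst3 higher at 1.55 ± 0.15 (adjusted p = 2.5e-06) and Gstm1, Gstm2, Gstp1, Gstt1 and Mgst1 lower. Interstitial cells had 5 (28.4%), Gstp1 and Gstt1 higher and Gsta4, Gstm2 and Mgst3 lower. Mesothelial cells had 4 (11.3%), Gstm1, Gstm2, Gstt1 and Mgst1, all higher. The reference is again a mean of log2 levels, which low germ values pull down. Mean Gstt1 was 1.07 CPM in germ cells, 42.9 in mesothelial cells and 91.4 in interstitial cells. Mean Gstp1 was 5.04 in germ cells, and 58.1, 56.3 and 57.5 in granulosa, interstitial and mesothelial cells. Gsta4 and Gstm5 in germ cells, which were called against the mean with immune cells, were not called against the mean without them.

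Granulosa cells were split by Colec11 and Pld5, genes of the pregranulosa cells around resting oocytes. Cells with at least 2 UMIs of the pair (499 and 240 cells) were compared with cells that had none (874 and 266 cells), and none of the 10 genes was called, against 4.16% of 14313 genes. At an unadjusted p under 0.05, 2 of the 10 genes and 2563 of all genes passed in edgeR, and DESeq2 called none of the 10. With the library as a block in edgeR, 4 of the 10 genes and 3133 of all genes passed that p, and none of the 10 was called. Gsta3 held 99.1 and 174 CPM with Colec11 and Pld5 and 54.2 and 77.1 without, a log2 difference of 1.07 ± 0.35 (adjusted p = 0.11). Mgst1 held 803 and 782 with and 394 and 441 without, a difference of 0.92 ± 0.34 (adjusted p = 0.15). Gstm1 held 1234 and 1429 against 892 and 1019, and Gstm2 1477 and 1672 against 925 and 1202, differences of 0.47 ± 0.33 and 0.56 ± 0.40 (adjusted p = 0.50 and 0.52). For these 4 genes the groups of 2 libraries did not overlap, but the share of all genes that did the same was not counted. The other 6 genes had log2 values between -0.33 and 0.01. Gsta3 was called in 2 of 15 settings, without a filter on low counts and with thinned cells. Mgst1 was called in none of them, with log2 values from 0.80 to 0.98, under 2-fold in each. Its adjusted p over these edgeR and DESeq2 fits ran from 1.9e-04 to 0.51. The 2 groups differed in other ways too. Cells with Colec11 and Pld5 were deeper, with medians of 11482 and 13601 UMIs against 9809 and 8061. Immune markers summed to 16.2 and 1.84 CPM with Colec11 and Pld5 and to 1.03 and 2.47 without, on at least 4 of 5 genes. The granulosa markers outside the gates summed to 599 and 571 CPM with Colec11 and Pld5 and to 1680 and 1587 without, and erythroid genes to 343 and 1787 with and to 32.1 and 43.3 without, all 5 genes of either list being detected in each group. Mesothelial markers summed to 62.1 and 197 CPM with Colec11 and Pld5, on 4 and 5 of 5 genes, and to 121 and 348 without, on all 5, with Krt19 at 2.35 and 8.92 against 26.0 and 68.0. The part of these differences in the enzyme values was not tested.

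**Figure D5:**
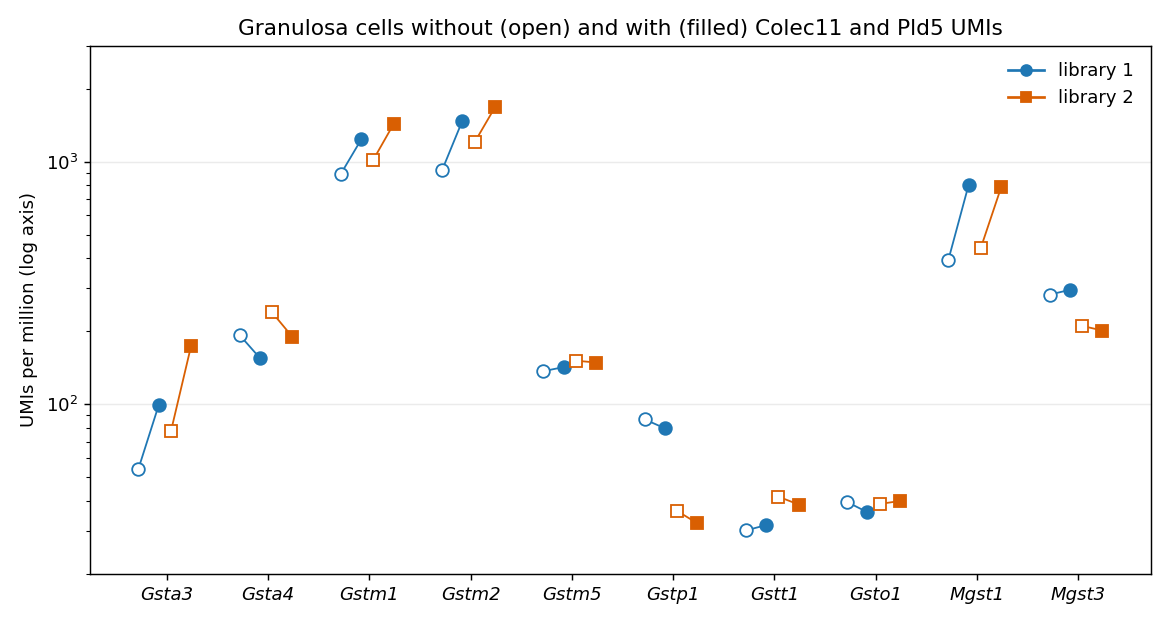
CPM on a log axis for the 10 genes in granulosa cells without (open) and with (filled) Colec11 and Pld5 UMIs, joined by a line within library 1 (circles) and library 2 (squares). Gsta3, Gstm1, Gstm2 and Mgst1 slope upward in both libraries (Mgst1 from 394 to 803 and from 441 to 782), Gsta4 and Gstp1 slope downward in both, and none passed the test.

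Promoter sequence is shown for genes with their highest level in granulosa cells (Gsta3, Gstm1, Gstm2) and for 2 without (Gstm5, Mgst3). It is from RefSeq windows on GRCm38.p6 of 250 bases before to 50 after a RefSeq transcript start. Such windows were found for 9 of the 10 genes. RefSeq starts can differ from the ends of the genes given above, which are from GENCODE. Those of Gstm2, Gstm5, Gstp1, Gstt1, Gsto1 and Mgst1, and a further start of Gstm1 whose window is not printed, lie inside the GENCODE gene. Each line gives the bases of the window that lie before both starts on the gene's own strand, which are 217 for Gstm2 and Gstm5 and 250 for Gsta3, Gstm1 and Mgst3; capitals mark a match to the core of the antioxidant response element, TGACNNNGC, on either strand. For Mgst1 only the 30 bases around its match are given, which lie before the RefSeq start and after the GENCODE start.
Gsta3, chr1:21240335-21240584, plus strand: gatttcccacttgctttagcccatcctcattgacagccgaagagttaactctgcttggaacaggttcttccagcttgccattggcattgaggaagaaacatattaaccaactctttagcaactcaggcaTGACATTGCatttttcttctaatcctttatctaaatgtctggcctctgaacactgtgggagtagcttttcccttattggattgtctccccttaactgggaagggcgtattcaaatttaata
Gstm1, chr3:108017974-108018223, minus strand: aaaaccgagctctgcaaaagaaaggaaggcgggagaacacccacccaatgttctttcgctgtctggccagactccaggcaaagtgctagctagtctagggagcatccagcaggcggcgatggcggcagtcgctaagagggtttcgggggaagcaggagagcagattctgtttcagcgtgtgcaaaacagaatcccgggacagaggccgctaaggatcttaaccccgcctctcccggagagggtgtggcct
Gstm2, chr3:107986454-107986670, minus strand: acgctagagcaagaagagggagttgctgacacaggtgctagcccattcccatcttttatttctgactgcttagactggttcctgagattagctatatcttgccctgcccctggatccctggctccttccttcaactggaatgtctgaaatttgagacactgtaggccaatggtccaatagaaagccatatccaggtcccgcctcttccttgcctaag
Gstm5, chr3:107895604-107895820, plus strand: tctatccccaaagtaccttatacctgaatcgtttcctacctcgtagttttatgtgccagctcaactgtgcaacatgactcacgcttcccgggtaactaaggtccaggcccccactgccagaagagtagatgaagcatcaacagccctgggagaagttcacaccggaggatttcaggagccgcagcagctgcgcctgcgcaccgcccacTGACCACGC
Mgst3, chr1:167393842-167394091, minus strand: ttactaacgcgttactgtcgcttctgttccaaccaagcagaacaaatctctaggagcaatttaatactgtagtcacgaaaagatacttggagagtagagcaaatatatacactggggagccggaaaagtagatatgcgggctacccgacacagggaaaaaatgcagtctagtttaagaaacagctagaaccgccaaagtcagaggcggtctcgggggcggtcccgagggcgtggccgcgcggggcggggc
Mgst1, chr6:138140461-138140490, plus strand: gcggggcttgGCACGGTCAggaggcggggt

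The core was found in the windows of Gsta3 (first base at -121, counted from the RefSeq start), Gstm5 (at -42 from that start, and directly before the GENCODE start) and Mgst1 (at -56 from the RefSeq start, in 1 of its 2 windows), and in 12.4% of all 32851 windows. The windows of Gstm1, Gstm2, Gstp1, Gstt1, Gsto1 and Mgst3 held no match, so the granulosa-high genes Gsta3 and Mgst1 had one while Gstm1 and Gstm2 did not, and the even gene Gstm5 did. The letters CAAGGTCA, a nuclear receptor site, were in no window of the 9 genes and in 1.56% of all windows. A match is a description of letters and not a site in use. The windows also differed in composition, from 41.0% G and C with 2 CpG pairs for Gsta3 to 62.7% with 20 for Gstp1, where the median over all windows was 52.7% and 7.

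The other genes named as glutathione transferases number 17, of which 16 were in the files and 12 were tested. Against germ cells, granulosa cells were higher in 5 (Gstm6, Gstm7, Gstp3, Gstt3, Mgst2) and lower in 4 (Gsto2, Gstp2, Gstk1, Gstt2), where 60.8% of all genes were called, with a median log2 difference of 0.52 beside -0.11 for all genes. Gsto2, next to Gsto1 and with the same omega chemistry, was a germ cell transcript at 50.9 and 32.3 CPM against 0.861 and 0.894 in granulosa cells, a difference of -5.71 ± 0.33 (adjusted p = 8.7e-09). Gstk1, the peroxisomal and mitochondrial kappa enzyme, held 50.2 and 50.1 in germ cells and 1.82 and 2.30 in granulosa cells. Gstk1 was higher in interstitial than in granulosa cells (-3.16 ± 0.25, adjusted p = 3.9e-07). Hpgds, the sigma enzyme that makes prostaglandin D2, held 203 and 292 CPM in immune cells and at most 1.13 in the other types. The immune values rest on 5 and 10 cells, with 34508 and 61687 UMIs of all genes.

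The genes that make, reduce and export glutathione were counted in lists. Of 13 tested genes of synthesis and turnover, granulosa cells were higher than germ cells in 3 and lower in 6 (60.8% of all genes called), with a median of -0.71 beside -0.11 for all genes. The lower ones were Slc7a11 (-5.13, adjusted p = 2.3e-08), the cystine carrier, at 29.2 and 29.5 CPM in germ cells; Ggct, which breaks down gamma-glutamyl peptides; Gclm, the regulatory subunit of glutamate-cysteine ligase, at 322 and 344 in germ cells against 74.3 and 64.7; and Gss, Chac1 and Ggt7. The higher ones were Oplah (4.22, adjusted p = 2.6e-08), Slc3a2 and Cndp2. Against interstitial cells, granulosa cells were higher in 4 and lower in 2 of this list (27.9% of all genes called), the largest of them Ggt5 at -5.28 (adjusted p = 1.9e-08).

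Of 19 genes of reduction and peroxidases, 6 were higher and 1 lower in granulosa than in germ cells (60.8% of all genes called), with a median of 0.41. Gpx7 (5.27, adjusted p = 1.5e-09) and Gpx8, peroxidases of the endoplasmic reticulum, were among the higher, and secreted Gpx3 (-3.11, adjusted p = 5.7e-08) was the lower one. Gpx3 was also lower in granulosa than in interstitial cells (-5.91, adjusted p = 1.5e-09), where 4 of the list were higher and 3 lower (27.9% of all genes called). Of 15 Nrf2 regulators and targets, 9 were higher and 3 lower in granulosa than in germ cells (60.8% of all genes called), with a median of 1.49. Nfe2l2, which encodes Nrf2, held 139 and 124 CPM in granulosa cells against 3.92 and 7.32 in germ cells (4.34, adjusted p = 3.6e-09), and Keap1 38.1 and 41.8 against 37.3 and 36.1. Srxn1 (5.37) had the largest difference upward and G6pdx (-2.67) the largest downward. Between granulosa and interstitial cells only Nqo1 of this list was called (1.29, adjusted p = 0.0092), against 27.9% of all genes.

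Of 16 genes of conjugate export and related detoxification, granulosa cells were higher than germ cells in 6 and lower in 3 (60.8% of all genes called), with a median of 0.11. The largest difference upward was that of Aldh1a1, the retinaldehyde dehydrogenase (5.71, adjusted p = 2.2e-09), and the largest downward that of Ltc4s, the leukotriene C4 synthase related to Mgst3, with 18.9 and 14.0 CPM in germ cells against 3 UMIs and 0 UMIs in all granulosa cells. The exporter Abcc4 was lower in granulosa cells too (-4.35, adjusted p = 3.8e-06), at 8.26 and 16.7 CPM in germ cells. Against the mean of the other 4 types, the counts of higher and lower genes in granulosa cells were 3 and 0 for the other glutathione transferases, 1 and 0 for synthesis, 3 and 1 for reduction, 3 and 0 for Nrf2 and 5 and 0 for export, against 17.4% and 2.41% of all genes. In germ cells they were 6 and 1, 5 and 3, 2 and 4, 2 and 6, and 5 and 3, against 35.0% and 9.98%. In interstitial cells they were 1 and 0, 2 and 1, 4 and 3, 1 and 1, and 0 and 2, against 16.5% and 3.20%. In mesothelial cells they were 1 and 0, 1 and 0, 3 and 1, 1 and 0, and 1 and 1, against 7.20% and 1.05%. In the split of granulosa cells 2 genes of the export list and none of the other 4 lists were called, against 4.16% of all genes.

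Over 12 sums (6 cell groups in 2 libraries, which share their library and depth), the log2 level of Gstm1 ran closest to Idh1 (Pearson r = 0.991), that of Gstm2 to Aldh1a1 (0.988) and that of Gsta3 to Ly6d (0.981). For Gstt1 it was Fkbp10 (0.996), for Mgst1 Paxx (0.973), for Mgst3 Ndufa6 (0.989), for Gsta4 Ptprf (0.987) and for Gstm5 Pde6d (0.994). Gstp1 was closest to Smad7 (0.970) and Gsto1 to Csrp1 (0.979). Among the 10 genes Gstm1 and Mgst1 were the closest pair (0.957), then Gsta4 and Gstm5 (0.953). Gsto1 had negative values with the granulosa-high genes, from -0.510 with Gstm2 to -0.652 with Gstm1. The 12 sums include the immune sums, which hold few UMIs, and their part in these values was not tested.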

How the data were processed

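The data were UMI counts per gene and cell from 3′ single-cell libraries of whole ovary. The deposited counts are unnormalised; the submitters' processing notes name Cell Ranger 3.0.2 and GRCm38, the labels name v2 chemistry and the study's methods another version, so the kit is uncertain. The deposited cells had medians of 8316 and 5798 UMIs. Cells under 500 genes or over 10% mitochondrial UMIs were left out, then likely doublets (Scrublet score over 0.19, 3.02% and 2.96%). Cell types were gated on UMIs: germ, at least 2 of Ddx4, Dazl and Ooep and 5 per 10000; granulosa, 2 UMIs and 2 per 10000 of Foxl2, Fst and Wnt6; interstitial, Col1a2 and Dcn both present and 5 per 10000; mesothelial and immune, 2 UMIs and 2 per 10000 of Upk3b or Ptprc. Cells of several gates (391 and 881) or none (174 and 325) were left out. Among the former, 251 and 594 passed the granulosa and interstitial gates, and 136 and 186 the granulosa and mesothelial gates. Counts were summed per library and type and tested with edgeR 4.0.16 (TMM, filterByExpr, quasi-likelihood, R 4.3.3), with an intercept for each type; the scripts were tested on simulated data. Genes named are the 10 enzymes, the listed pathway genes with calls or the largest difference, and the gene most like each enzyme. The enzymes, lists and threshold were chosen with earlier results of these data known. Alternatives were DESeq2 1.42.0, other scaling, filters, gates, references, depth and single libraries. Cell types of 1 library come from the same animals, so the library number pairs the samples; deviations from the type means correlated between types by -0.0073 to 0.25 over 14707 genes. Shares have exact (Clopper-Pearson) 95% intervals in the tables, and all intervals cover counting error only. Gene positions are from GENCODE on GRCm38, and promoters from RefSeq.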

Additional observations from a re-analysis of the deposited data

Results flagged for a closer look

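Gsta3 was also found in cells that passed no gate, which no comparison used. These 174 and 325 cells held 37.4 and 60.5 CPM of it (57 and 72 UMIs), above interstitial, germ and mesothelial cells and below granulosa cells. Among them, the 58 and 25 cells with at least 3 endothelial markers held 21.3 and 31.5 CPM, on 20 and 8 UMIs. Which cells carried the rest was not tested.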

How the results depend on the processing

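Counts of called enzymes are for the types against the mean of the others unless a pair is named. Except for the fit without immune cells, the share of all genes called under each setting was not counted. The counts therefore show only how the calls moved. DESeq2 called 1 enzyme in immune cells. With no filter on low counts 6 were called in immune cells and 1 in the granulosa split. The fit paired by library (replicate block) called 5 in immune cells, and its other changed calls are given with the results; it changed no further call of a named enzyme. With the sum of all other gated cells as reference the counts were 5 in granulosa, 6 in interstitial, 1 in mesothelial and 6 in immune cells, and Gstm5 in germ cells turned to -0.12. The 1 in mesothelial cells was Gsta3, which the main fit did not call there. Stricter gates left 1 and 0 immune cells, so that type could not be fitted, and gave 5 in interstitial cells, 2 in mesothelial cells, 1 between granulosa and mesothelial cells and 3 between mesothelial and interstitial cells. They raised the mesothelial cells to 51 and 83 and the interstitial cells to 1354 and 2389. Giving cells of several gates to the largest gave 3 in mesothelial cells, 1 between granulosa and mesothelial cells and 3 between mesothelial and interstitial cells. Thinned cells gave 3 in mesothelial cells, 4 between granulosa and mesothelial cells and 1 in the split, and turned Gsta4 and Gstm2 in interstitial cells to 1.21 and 0.23. The added alternatives gave 5 in interstitial cells without immune cells and 5 in immune cells with a wider immune gate. Enzyme and type combinations with a UMI in over 50% of cells fell from 18 to 5 when cells were thinned to 2000 UMIs. With 1 library alone no test was made and values past 2-fold were counted: without replicate 1 or 2 the counts ran from 6 to 8 in interstitial, 7 to 9 in mesothelial and 7 to 9 in immune cells, 3 to 4 between granulosa and mesothelial cells, 5 to 8 between mesothelial and interstitial cells and 0 to 1 in the split. For Gstp1, germ cells ran from -3.61 to 0.0027 over the 2 libraries, and Gsta4 and Gstm2 in interstitial cells from -0.51 to 1.48 and from -1.52 to 1.68. The cause of these changes was not tested. Values of 20 and 41 mesothelial cells and 5 and 10 immune cells limit what could be seen, since 3 UMIs are 12.7 and 7.43 CPM in the former and 86.9 and 48.6 in the latter.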
